A study of Mus musculus with 7 samples.

Results

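The 8 genes described here encode transcription factors of the sympathoadrenal lineage, Phox2a, Gata2, Gata3, Hand1, Hand2, Isl1, Insm1 and Tfap2b. They were chosen by symbol from a table of 35976 genes measured in 7 RNA libraries of mouse adrenal gland, and all 8 were in the table. Each passed the filter for testing (16720 genes did), which asked for an average of 10 or more normalized counts. Levels are given as normalized counts, reads divided by 1 size factor per library.

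All glands were whole adrenals of the inbred mouse strain C57BL/6J, with no treatment or altered gene named in the labels, and each library was made from 1 pool of glands. The libraries were E18.5, late in gestation, of sex not determined (40 glands), P1 male (16 glands) and P1 female (22 glands) from the day after birth, and then male and female at 2 weeks (6 glands each) and at 12 weeks (4 glands each). Reads in genes ranged from 15184210 to 23551289 per library. Every age and sex therefore had 1 library and no replicate, and the spread in each test is that left between libraries of one age after age was fitted, and, in the tests of the 6 postnatal libraries, sex, so a difference between pools and a difference between animals cannot be told apart.

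Chromaffin cells and sympathetic neurons both descend from the neural crest, and in the adrenal gland a large share of chromaffin cells arises from Schwann cell precursors that travel along the nerves. In these cells BMP signals start a network of transcription factors in which PHOX2A, HAND2, GATA3, GATA2, INSM1 and TFAP2B take part and which switches on the catecholamine enzymes. The same factors serve both fates, so their RNA marks the lineage and not one cell type, and outside it GATA2 is also known from endothelium and mast cells, GATA3 from T cells and kidney, and ISL1 and INSM1 from pancreatic islets.

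The library labelled P1 female stood apart. The sum of 4 Y-linked transcripts (Ddx3y, Eif2s3y, Kdm5d and Uty) was 20.7% of that in the P1 male library, against 0.0719% in the 2-week female library and 0.0369% in the 12-week female library. Relative to the P1 male library its summed level was 335% for Schwann cell genes, 186% for 8 chromaffin reference genes and 65.2% for adrenal cortex genes. Kidney genes summed to 9983 normalized counts in the P1 male library and 2731 in the P1 female library, and to between 35.0 and 69.7 at 2 and 12 weeks, and exocrine pancreas genes to 6505 and 104 at P1. At E18.5 the kidney and exocrine pancreas sums were 1433 and 29.4. The E18.5 sum of the 4 Y-linked transcripts was 69.3% of that in the P1 male library. Xist, a transcript of female cells, had 9782 normalized counts at E18.5, against 22.1 in the P1 male and 8103 in the P1 female library. The E18.5 pool thus held RNA of both sexes. Because the P1 female library stood apart, the main comparisons that use it are also given without it. The only P1 library left is then P1 male, which had the higher kidney and exocrine pancreas sums. Defining markers of the adrenal cortex and of chromaffin cells were high in every library, with Star between 47002 and 372882 and Th between 4970 and 7507 normalized counts.

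Positions are those of GENCODE M21 on GRCm38 (mm10), the build named in the submitters' processing notes. Phox2a spans chr7:101818313-101822726 (plus strand), Gata2 chr6:88193891-88207032 (plus), Gata3 chr2:9857078-9890034 (minus) and Hand1 chr11:57828705-57832818 (minus). Hand2 spans chr8:57320983-57324633 (plus), Isl1 chr13:116298281-116309689 (minus), Insm1 chr2:146221921-146225020 (plus) and Tfap2b chr1:19208914-19238576 (plus). The 8 genes thus lie on 7 chromosomes, with Gata3 and Insm1 far apart on chromosome 2. Phox2a overlaps Inppl1 on the opposite strand, which had 1005 to 1656 normalized counts, and Gata3 overlaps 4930412O13Rik (17.0 to 68.1) on the opposite strand and 9230102O04Rik (0.9 to 13.9) on its own. Hand2 overlaps the antisense gene Hand2os1. Whether counting used strand is not given in the sources used here, so reads of Phox2a, Gata3 and Hand2 cannot be told apart from those of their partners where the exons overlap.

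Because GATA factors, HAND factors and PHOX2A are members themselves, the DNA before the members' start sites was searched for the letters such factors are known to prefer. RefSeq windows on GRCm38.p6, from 250 bases before to 50 after a start site, were at hand for 6 of the 8 genes, 7 windows in all with 2 for Gata2. Searched on both strands, GATA was found in 5 of 7 windows (57.9% of the 32851 windows in the table), the E-box CANNTG in 6 of 7 (72.3%) and the homeodomain core TAAT in 3 of 7 (58.0%). GCCNNNGGC, the palindromic site of AP-2 factors, was found in 2 of 7 (16.6%) and the cyclic AMP response element TGACGTCA in 0 of 7 (1.79%). GATA and TAAT share letters, so their counts are not independent. Their matches overlap in Isl1 (114 and 112 bases before the start site) and in Hand2 (171 and 173 bases before it). The 250 bases before the start sites of Phox2a, Hand2 and Isl1 are shown, because these 3 hold GATA matches more than 100 bases upstream, with each match in capitals (TATC is GATA on the other strand). The lines lie at chr7:101818063-101818312 (plus strand), chr8:57320733-57320982 (plus strand) and chr13:116309689-116309938 (minus strand).
Phox2a: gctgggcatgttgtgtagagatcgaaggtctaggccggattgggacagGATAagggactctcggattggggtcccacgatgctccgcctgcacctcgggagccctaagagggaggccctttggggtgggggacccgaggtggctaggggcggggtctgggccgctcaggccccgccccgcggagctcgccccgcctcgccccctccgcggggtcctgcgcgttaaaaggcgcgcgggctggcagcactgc
Hand2: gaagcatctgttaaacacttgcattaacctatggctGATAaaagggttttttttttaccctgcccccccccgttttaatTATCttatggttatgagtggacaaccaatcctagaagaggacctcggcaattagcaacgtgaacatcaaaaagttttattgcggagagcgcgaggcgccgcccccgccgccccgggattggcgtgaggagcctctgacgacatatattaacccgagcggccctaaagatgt
Isl1: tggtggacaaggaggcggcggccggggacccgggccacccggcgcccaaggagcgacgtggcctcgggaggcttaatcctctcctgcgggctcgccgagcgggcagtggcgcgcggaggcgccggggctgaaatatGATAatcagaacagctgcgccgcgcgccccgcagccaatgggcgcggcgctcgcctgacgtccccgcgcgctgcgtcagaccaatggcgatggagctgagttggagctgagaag
The match lies 202 bases before the start site in Phox2a and 114 bases before it in Isl1, and the 2 matches of Hand2 lie 214 and 171 bases before it. Such a match is a string of letters found in many promoters, and no binding was measured.

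Between genes, levels were compared per kilobase of exon. Hand2, a basic helix-loop-helix factor needed for noradrenergic differentiation, was the highest of the 8 in 7 of 7 libraries, at a median of 272 normalized counts per kilobase (range 215 to 578). Its counting interval lay above that of Hand1, the next by median, in 7 of 7 libraries. The order after Hand2 by median was Hand1 (92.3), Tfap2b (83.1), Phox2a (57.0), Gata3 (56.9), Gata2 (55.4), Isl1 (54.4) and Insm1 (31.6). Insm1, a zinc-finger factor of neuroendocrine cells, was the lowest in 5 of 7 libraries. From Hand1 to Isl1 neighbours traded places between libraries, apart from Tfap2b and Phox2a. Hand1 was above Tfap2b in 3 of 7 libraries, Phox2a above Gata3 in 4, Gata3 above Gata2 in 4 and Gata2 above Isl1 in 3. Tfap2b was above Phox2a in 7 of 7, with counting intervals apart in 4.

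**Figure D1:**
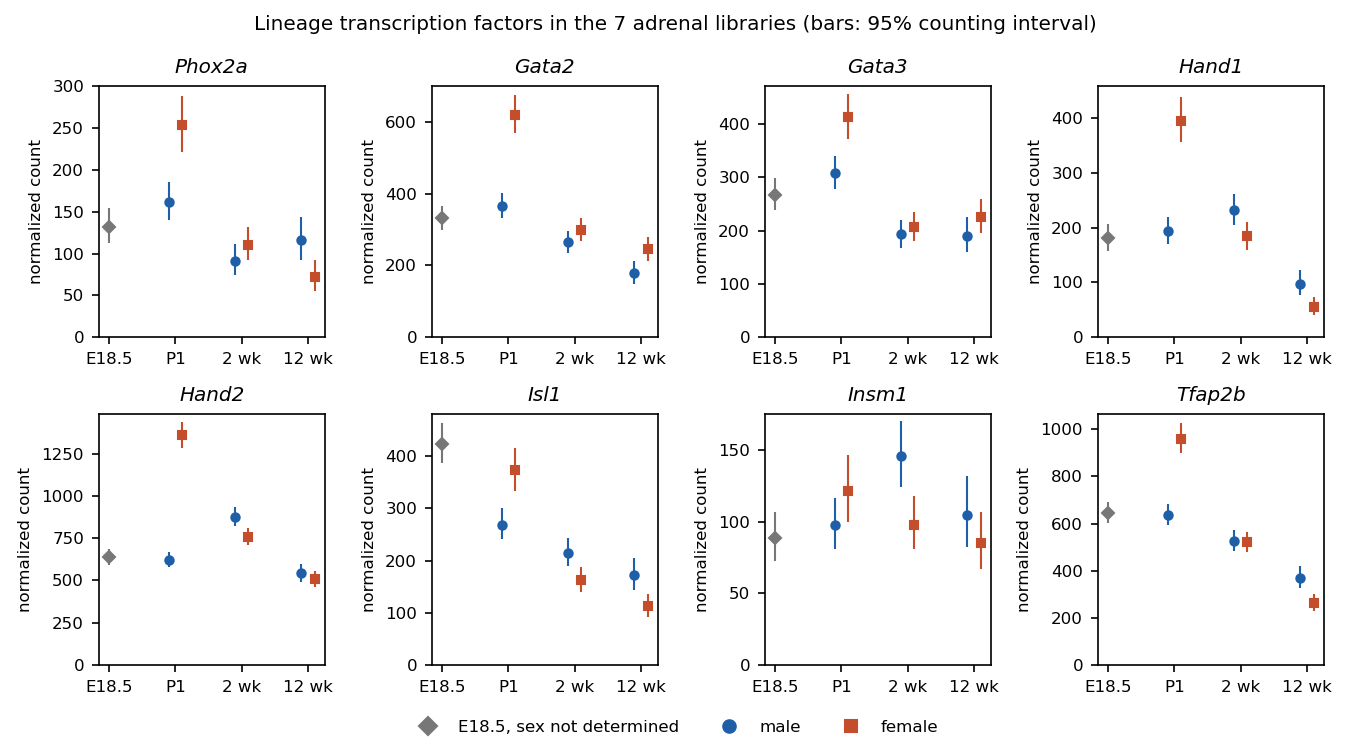
Normalized count of each transcription factor (vertical axes, starting at 0) in the E18.5 library and in the male and female libraries at P1, 2 weeks and 12 weeks, with bars for the 95% counting interval. The library labelled P1 female is the highest for 6 of the 8 genes, the exceptions being Isl1, highest at E18.5, and Insm1, highest in the 2-week male library.

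Phox2a, a homeodomain factor that binds catecholamine enzyme promoters, had 132 normalized counts at E18.5 and 162 and 254 in the P1 male and P1 female libraries. At 2 weeks it had 91.6 (male) and 110 (female), and at 12 weeks 116 and 72.4. Both P1 libraries were above all 4 later ones. Gata2 had 331 at E18.5, 366 and 620 at P1, 264 and 299 at 2 weeks, and 179 and 244 at 12 weeks, in male and female libraries in turn. Gata3, the other GATA factor, whose loss in mice is lethal through lack of noradrenaline, had 267 at E18.5, 308 and 413 at P1, 193 and 206 at 2 weeks, and 190 and 226 at 12 weeks. For both GATA genes the P1 libraries were above all later ones, while for Gata3 the 2-week and 12-week values overlapped.

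Hand1, the relative of Hand2, had the widest range of the 8, 7.15-fold from highest to lowest library. It had 181 normalized counts at E18.5, 194 and 396 at P1, 232 and 184 at 2 weeks, and 97.9 and 55.4 at 12 weeks. Its 12-week libraries were below the other 5. Hand2 had 639 at E18.5, 624 and 1359 at P1, 877 and 757 at 2 weeks, and 541 and 506 at 12 weeks. The 2-week values of Hand1 and Hand2 fell between those of the P1 libraries or, for Hand1 female, just below them.

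Isl1, a LIM-homeodomain factor of sympathetic precursors and neurons, was highest before birth, with 424 normalized counts at E18.5, 269 and 373 at P1, 215 and 162 at 2 weeks, and 172 and 112 at 12 weeks. Insm1 had the narrowest range, 1.72-fold, with 88.2 at E18.5, 97.4 and 121 at P1, 146 and 97.9 at 2 weeks, and 105 and 84.9 at 12 weeks. Its 3 postnatal ages overlapped. Tfap2b, the AP-2 factor that maintains noradrenergic features, had 646 at E18.5, 636 and 960 at P1, 527 and 522 at 2 weeks, and 371 and 264 at 12 weeks. Its 3 postnatal ages did not overlap.

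From P1 to 12 weeks 6 of the 8 factors fell. They were called by limma with Benjamini-Hochberg adjustment over all 16720 genes at 0.05, in a fit of the 6 postnatal libraries with age and sex. Over all genes 23.5% were lower by that rule and 41.2% changed in either direction. The median over the 8 was -1.16 on the log2(normalized count + 1) scale, against -0.03 over all genes tested, and 0 of the 8 rose. In bulk tissue fewer cells of a type and less RNA per cell cannot be told apart.

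By limma the difference from P1 to 12 weeks was -1.90 ± 0.43 (log2, SE) for Hand1 (adjusted p = 0.0139) and -1.32 ± 0.26 for Tfap2b (adjusted p = 0.00904). Isl1 fell by 1.19 ± 0.30 (adjusted p = 0.0208), Gata2 by 1.18 ± 0.21 (adjusted p = 0.00576) and Phox2a by 1.14 ± 0.35 (adjusted p = 0.0403). The smallest called difference was that of Gata3, -0.78 ± 0.20 (adjusted p = 0.0215). Hand2 differed by -0.81 ± 0.32 (adjusted p = 0.0865) and Insm1 by -0.20 ± 0.30 (adjusted p = 0.613), and neither was called. On the reads themselves the edgeR quasi-likelihood test called 6 of the 8 (23.3% of all genes lower) and DESeq2 called 7 (22% lower).

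These calls depended on more than 1 library, and most on the library labelled P1 female. Without it limma called 0 of the 8 (11.9% of all genes lower, 19.2% in either direction) and without the P1 male library it called 5 (13.6% lower). Without the 12-week female library the median over the 8 was -0.82, against -0.03 over all genes. Without the 12-week male library it was -1.35, against -0.03. Leaving out a 2-week library left the median at -1.16 and changed only the spread. Each such fit with a lone library of an age assumes that it varies as the others do. The differences without the P1 female library were -1.10 for Hand1, -0.96 for Gata2, -0.90 for Tfap2b, -0.71 for Phox2a, -0.70 for Isl1 and -0.65 for Gata3, with adjusted p between 0.0726 (Gata2) and 0.310 (Phox2a) by limma. Hand2 then stood at -0.18 and Insm1 at 0.17. The part that its high Schwann cell and chromaffin levels and its Y-linked transcripts play in the calls was not tested. That of the kidney and exocrine pancreas transcripts in the P1 male library, the only P1 library in the fits without P1 female, was not tested either. Counted by library, 7 of the 8, all but Insm1, were higher in both P1 libraries than in both 12-week libraries, as were 37.8% of all genes. An exact two-sided permutation test of 2 libraries against 2 cannot go below p = 0.333.

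**Figure D2:**
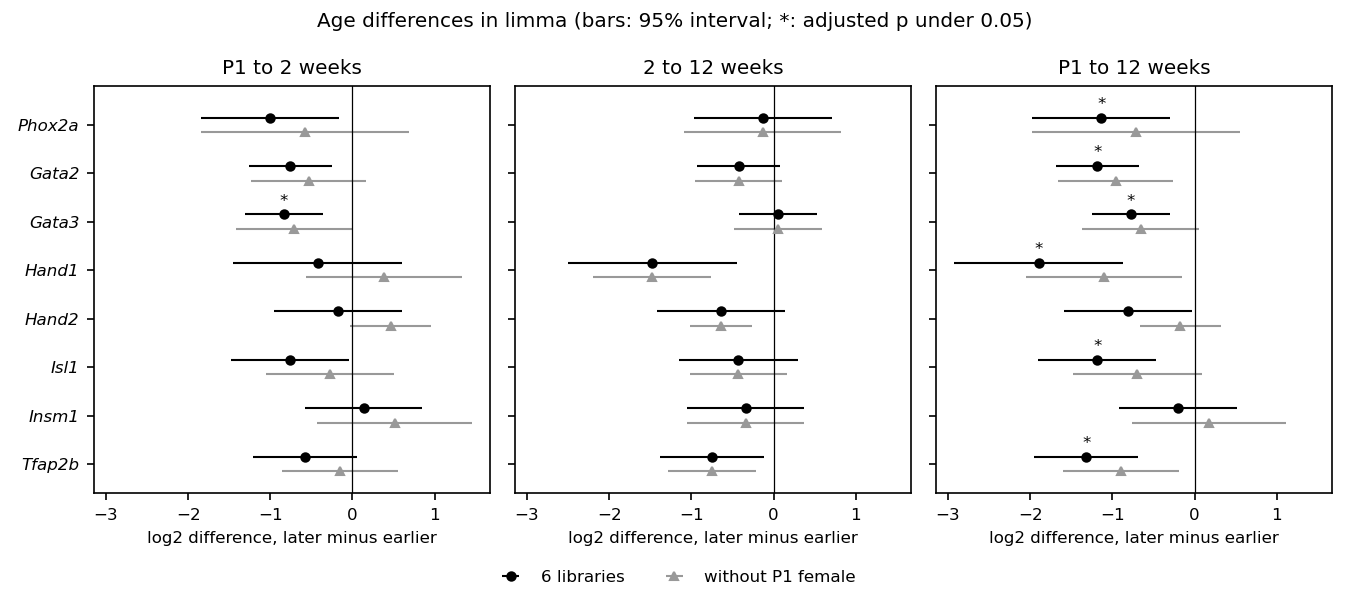
Log2 difference between ages (horizontal axis, later minus earlier) for each transcription factor, with 95% intervals from limma, in all 6 postnatal libraries (circles) and without the library labelled P1 female (triangles). Stars mark an adjusted p under 0.05, which 6 genes reach from P1 to 12 weeks and 0 reach without that library.

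The fall was then split at 2 weeks. From P1 to 2 weeks only Gata3 was called by limma, at -0.83 ± 0.20 (adjusted p = 0.0358), while 10.5% of all genes were lower. Gata2 stood at -0.76 (adjusted p = 0.0559), Phox2a at -1.01 (adjusted p = 0.103), Isl1 at -0.76 (adjusted p = 0.138) and Tfap2b at -0.57 (adjusted p = 0.189), limma. Without the P1 female library these differences were -0.54, -0.58, -0.27 and -0.15 in the same order, and those of Hand1, Hand2 and Insm1 were 0.38, 0.46 and 0.51, with 0 of the 8 called. In these 5 genes both P1 libraries were above both 2-week libraries, a pattern of 34.5% of all genes. Hand1 (-0.42), Hand2 (-0.18) and Insm1 (0.14) overlapped between the ages. The call of Gata3 was lost without the P1 female library (-0.71, adjusted p = 0.209, limma) and without the P1 male library (-0.96, adjusted p = 0.146), and 0 of the 8 were called when the male or the female 2-week library was left out. When the male or the female 12-week library was left out, 5 were called, and 16.1% of all genes were lower in either case.

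From 2 to 12 weeks limma called 0 of the 8, while 15.3% of all genes were called in either direction (903 higher and 1654 lower, or 647 and 2515 with libraries scaled to equal totals). At an unadjusted p under 0.05 there were 2, Hand1 at -1.48 ± 0.43 (adjusted p = 0.0648) and Tfap2b at -0.74 ± 0.26 (adjusted p = 0.107). The edgeR test called 0 (2441 of all 16720 genes in either direction) and DESeq2 called 1 (2942 of 16395). Without the 12-week male library the median over the 8 went from -0.43 to -0.72, and without the 12-week female library to -0.30. In Gata2, Hand1, Hand2 and Tfap2b, 4 of the 8, both 2-week libraries were above both 12-week libraries, as in 35.3% of all genes. Gata3 stood at 0.06 (-0.11 with libraries scaled to equal totals) and Phox2a at -0.13 with intervals on both sides of 0 (-0.42 to 0.53 and -0.97 to 0.71). Whether the 2 steps differ for any one gene was not tested.

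Around birth no member was called. By limma on all 7 libraries, with the lone E18.5 library assumed to vary as the others do, 0 of the 8 passed, 0 had an unadjusted p under 0.05, and 0.00598% of all genes were called; edgeR and DESeq2 also called 0 members. Of the 8, 7 had a positive difference, between 0.27 (Tfap2b) and 0.62 (Phox2a), and Isl1 stood at -0.42 (95% interval -1.26 to 0.42). The median over the 8 went from 0.47 to 0.12 without the P1 female library. Against E18.5 the P1 male library gave ratios between 0.634 (Isl1) and 1.23 (Phox2a), and the counting interval excluded 1 for 1 gene, Isl1. Against E18.5 the P1 female library gave ratios between 0.879 (Isl1) and 2.19 (Hand1), and the interval excluded 1 for 7 genes.

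Between the sexes 0 of the 8 were called by limma over the 3 postnatal ages, where 0.00598% of all genes were. That is 1 gene, lower in males, and 0 genes were called higher in males, Y-linked genes included. Yet the Y-linked Ddx3y had 3793 normalized counts in the 2-week male and 1.76 in the 2-week female library. It had 604 in the library labelled P1 female. A fit that does not call such a gene cannot show that a member does not differ by sex. Of the members 1 had an unadjusted p under 0.05, Gata2 (male minus female -0.46 ± 0.17 on the log2 scale, adjusted p = 0.999 in limma), and edgeR and DESeq2 called 0 members. Gata2 was lower in the male library at 3 of 3 ages, with ratios of 0.590, 0.883 and 0.732, and Gata3 likewise, with ratios of 0.745, 0.935 and 0.840. The intervals of the fitted sex difference reached from -0.80 to 0.88 (log2) for Hand1 and from -0.55 to 0.49 for Tfap2b. Differences of that size were therefore not detectable with these libraries. The intervals are not adjusted for the number of genes tested, so larger differences could also go uncalled. At P1 the male library was below the female one for 8 of 8 genes (ratios 0.459 to 0.802), at 2 weeks above it for 5 and at 12 weeks above it for 6. With that P1 female library left out the fitted difference of Gata2 was -0.31, the median over the 8 went from -0.05 to 0.23, and 0 were called.

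Ratios between paired members do not depend on a library's scaling. Hand1 over Hand2, counted in reads, was 0.283 at E18.5, 0.311 and 0.292 at P1, 0.265 and 0.244 at 2 weeks, and 0.181 and 0.110 at 12 weeks, male and female in turn. The 95% counting intervals of both 12-week libraries (0.138 to 0.234 and 0.0799 to 0.147) lay below those of both P1 libraries (0.268 to 0.360 and 0.259 to 0.328). The counting intervals of the P1 male and P1 female libraries overlapped for this ratio, while the levels of both genes differed between these libraries.

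Gata2 over Gata3 ranged from 1.19 to 1.50 up to 2 weeks and was 0.941 and 1.08 at 12 weeks, with intervals that overlapped those of some earlier libraries. Isl1 over Insm1 was 4.81 at E18.5, 2.76 and 3.07 at P1, and between 1.32 and 1.66 in the 4 later libraries.

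**Figure D3:**
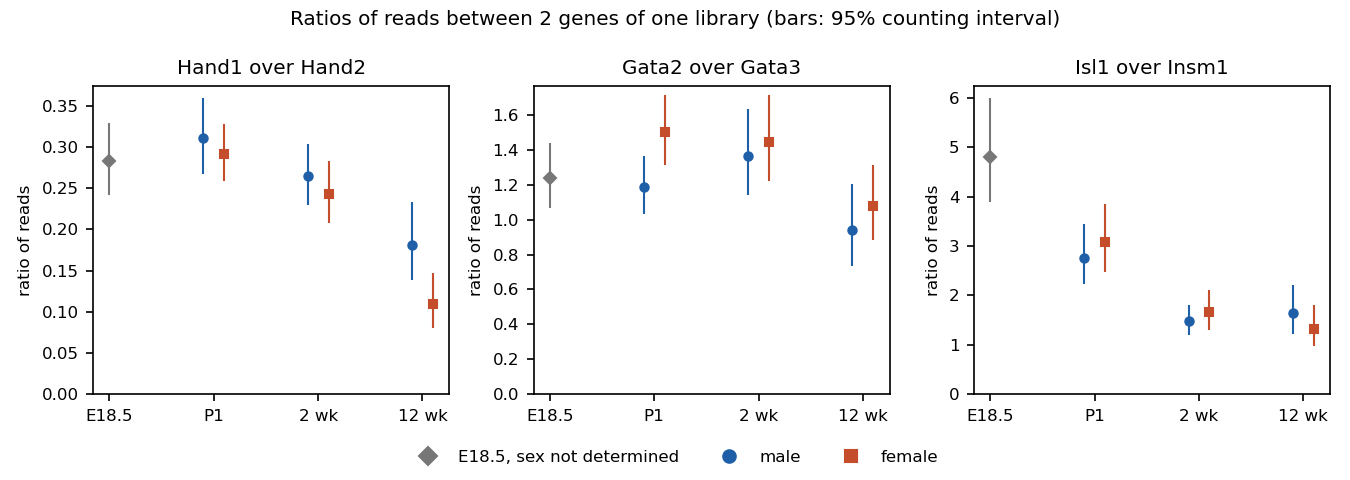
Ratio of reads between 2 genes of the same library (vertical axes, starting at 0) by age, with bars for the 95% counting interval. Hand1 over Hand2 is lowest at 12 weeks (0.181 and 0.110), Gata2 over Gata3 is lowest at 12 weeks (0.941 and 1.08), and Isl1 over Insm1 is highest at E18.5 (4.81).

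Each factor was also set against the geometric mean of 8 chromaffin genes (Th, Ddc, Dbh, Slc18a1, Slc18a2, Chga, Chgb and Scg2) of its own library. This mean was 4147 normalized counts at E18.5, 4134 and 5752 at P1, 7683 and 6765 at 2 weeks, and 5981 and 5690 at 12 weeks. As a percentage of it Tfap2b was 15.6% at E18.5, 15.4 and 16.7% at P1, 6.85 and 7.72% at 2 weeks, and 6.19 and 4.63% at 12 weeks. Hand2 was 15.4% at E18.5, 15.1 and 23.6% at P1, 11.4 and 11.2% at 2 weeks, and 9.05 and 8.89% at 12 weeks. On this scale the P1 libraries lie close together for Tfap2b, and apart for Hand2.

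Isl1 was 10.2% of the chromaffin mean at E18.5, 6.51 and 6.49% at P1, 2.80 and 2.40% at 2 weeks, and 2.88 and 1.97% at 12 weeks. Gata3 was 6.44% at E18.5, 7.44 and 7.18% at P1, 2.51 and 3.05% at 2 weeks, and 3.18 and 3.98% at 12 weeks. Hand1 was 4.36% at E18.5, 4.69 and 6.89% at P1, 3.02 and 2.73% at 2 weeks, and 1.64 and 0.97% at 12 weeks. Isl1 and Gata3 had nearly the same percentage in both P1 libraries, and Hand1 kept a gap between them.

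All 8 genes, Insm1 included, were higher relative to the chromaffin mean in both P1 libraries than in both 2-week libraries, but so were 63.9% of all genes, since the chromaffin mean itself was higher at 2 weeks. Against the 12-week libraries the count was also 8 of 8, with 44% of all genes. The shift of all genes on this scale was -0.56 (median log2) from P1 to 2 weeks and -0.28 from P1 to 12 weeks. By limma 5 of 8 were lower from P1 to 2 weeks (24% of all genes), 1 of 8, Hand1, from 2 to 12 weeks (6.67%), and 7 of 8, all but Insm1, from P1 to 12 weeks (24.7%). The error of the reference is shared by all genes and is not separate from that of each gene in these fits. In the main fits on this scale limma replaced each gene's own spread by that of all genes of like level. Its prior degrees of freedom were infinite there, against 4.5 in the postnatal fits of the normalized counts. Against Th, Ddc and Dbh alone the median of all genes was -0.23 from P1 to 2 weeks and 0.25 from P1 to 12 weeks, so the second shift turned, and limma called 4 of 8 members lower in each. From P1 to 12 weeks 3913 genes were then higher and 2745 lower, against 1252 and 4130 with the 8 genes. From P1 to 2 weeks 2242 genes were then lower, against 4005 with the 8 genes. Without the P1 female library the counts were 4 of 8 from P1 to 2 weeks (43.2% of all genes) and 6 of 8 from P1 to 12 weeks (30.2%). In the step to 2 weeks 0 were called without the P1 male library (0.012% of all genes lower) or the 2-week male library (6.84%), 2 without the 2-week female library (14.4%) and 3 without the male or without the female 12-week library (13.6% each). From P1 to 12 weeks 0 were called without the 12-week female library (12.9%) and 3 without the 12-week male library (12.1%), and from 2 to 12 weeks the call of Hand1 was lost when any 1 library was left out.

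**Figure D4:**
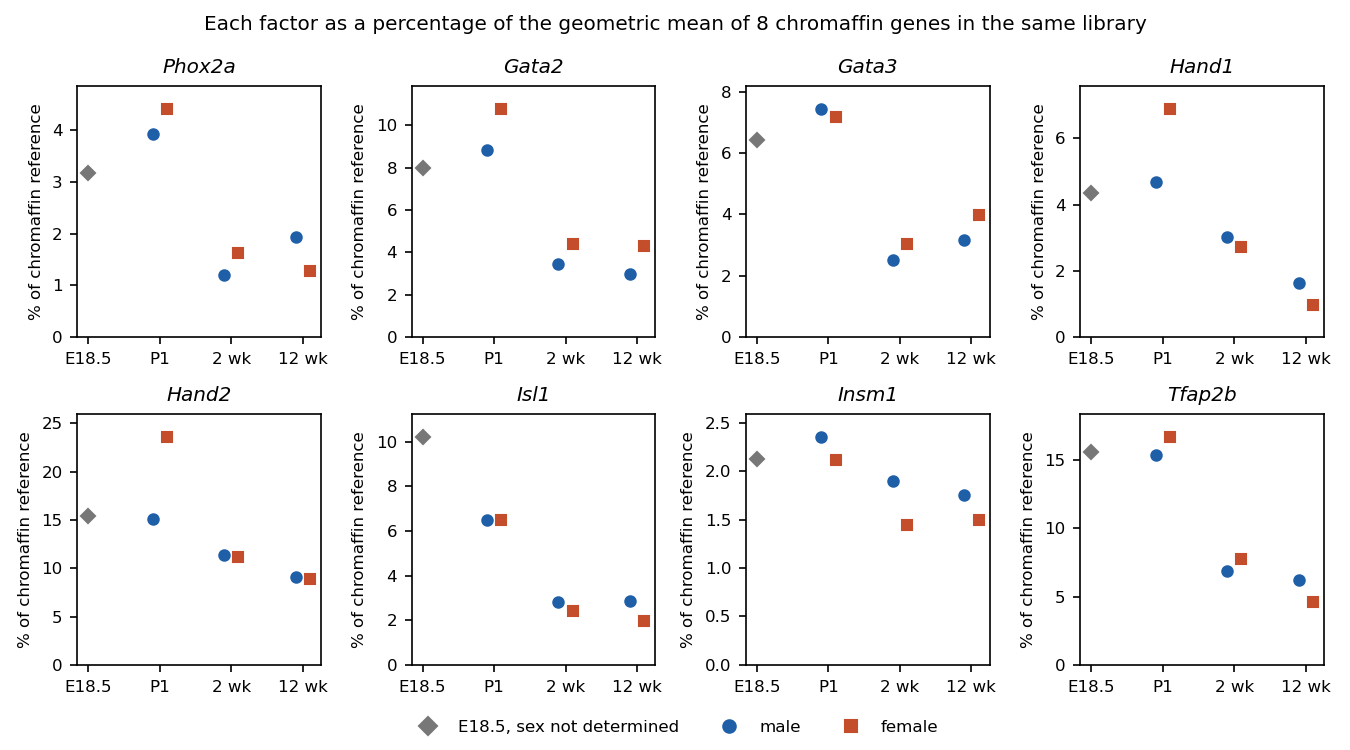
Each transcription factor as a percentage of the geometric mean of 8 chromaffin genes in the same library (vertical axes, starting at 0), by age, with male, female and E18.5 libraries marked. For all 8 genes both P1 libraries lie above the 4 later ones, and the later library closest to its P1 libraries is the 2-week male one of Insm1 (1.90%).

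The other transcription factors of the lineage were a list of 14 with 13 tested. From P1 to 12 weeks 8 of the 13 fell and 1 rose by limma, with a median of -0.81, the value of Rest. Without the P1 female library, a count chosen after seeing the data for this and the other lists, 4 of the 13 fell and 0 rose. Sox11 had 768 normalized counts at E18.5, 934 and 797 at P1, 124 and 107 at 2 weeks, and 14.0 and 10.2 at 12 weeks, and from P1 to 12 weeks it fell by 6.06 ± 0.24 (log2). Sox4 fell by 1.64, Gata4 by 1.76, Mycn by 0.93, Rest by 0.81 and Eya1 by 0.71, Hmx1 reached 0 reads in both 12-week libraries, and Nr4a1, an immediate early gene, rose by 2.45. The 12-week libraries of Nr4a1 lay far apart, at 1174 (male) and 8493 (female). It had 338 and 985 at P1 and was highest in the 2-week male library, with 9913 and 6960 at 2 weeks.

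Among the genes of mature chromaffin cells, calls went both ways. From P1 to 12 weeks 4 of its 18 genes rose, 2 fell and 12 were not called by limma, with a median of -0.14. Without the P1 female library 3 rose and 1 fell, and the median was 0.17. Chgb (1.14) and Scg2 (1.50), which encode granule proteins, rose, and Penk (-2.45), the enkephalin precursor, and Pnmt (-1.62), which makes adrenaline, fell. The catecholamine enzymes Th (-0.31, adjusted p = 0.155) and Dbh (-0.32, adjusted p = 0.347) and the granule protein Chga (0.23, adjusted p = 0.639) were not called in limma.

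Sympathetic neuron and neuroblast genes fell in 12 of 12 cases from P1 to 12 weeks, with a median of -2.61, and in 7 of 12 without the P1 female library. Examples are Gap43 (-5.48), a growth cone protein, Prph (-4.92), a neurofilament, and Tubb3 (-4.39), a neuronal tubulin. Their summed level was 9109 normalized counts at E18.5, 7678 and 8675 at P1, 6339 and 5017 at 2 weeks, and 1654 and 1047 at 12 weeks. The P1 female library was close to the P1 male library for this list (113%), unlike for the members (169%). The part of these cells in the members' fall was not tested.

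Schwann cell genes fell in 6 of 9 cases from P1 to 12 weeks (median -1.87) and rose in 0, and without the P1 female library 3 of the 9 fell (median -1.16). Sox10, the factor of Schwann cells and their precursors, had 143 normalized counts at E18.5, 145 and 296 at P1, 106 and 97.9 at 2 weeks, and 41.9 and 22.6 at 12 weeks, a difference of -2.71 ± 0.45 (adjusted p = 0.00445, limma). Proliferation genes fell in 8 of 8 cases with or without that library (median -3.92 with it), from 23339 and 23707 at P1 in sum to 1281 and 1386 at 12 weeks. At 2 weeks they still summed to 18173 and 19151, and 0 of the 8 were called from P1 to 2 weeks.

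**Figure D5:**
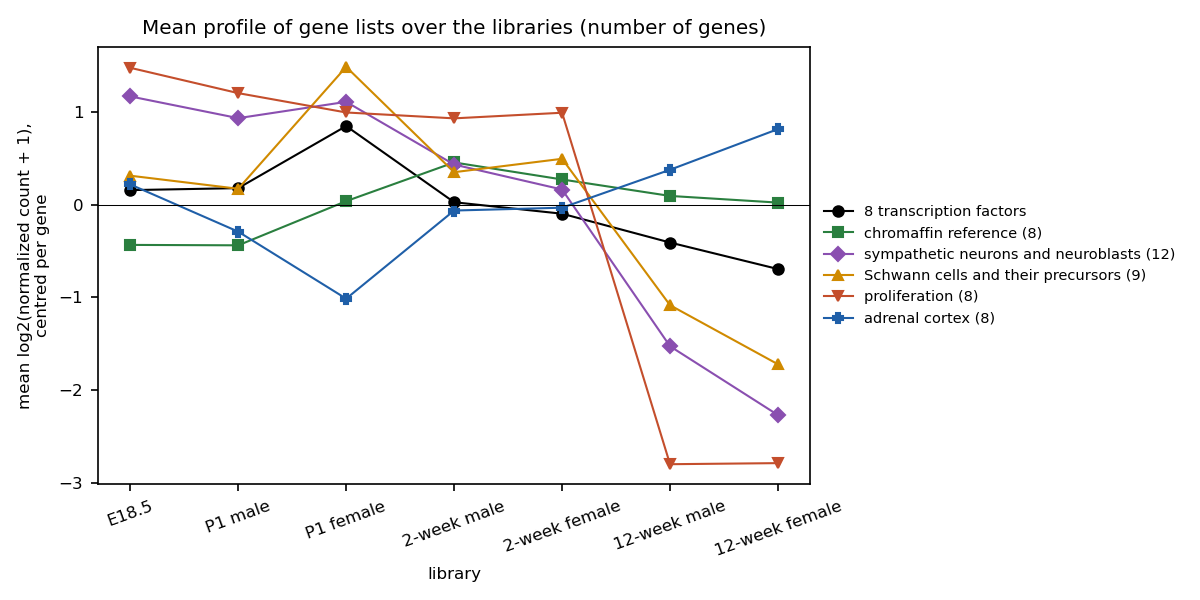
Mean of log2(normalized count + 1), centred on each gene's own mean, for the 8 transcription factors and 5 lists of marker genes over the 7 libraries (number of genes in brackets). The factors peak in the P1 female library (0.85), as do the Schwann cell genes (1.49), while the proliferation list drops between 2 and 12 weeks.

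Marker lists of other cells in which members are known to be expressed were read for the same libraries. Mast cell genes fell in 6 of the 6 tested (8 listed) from P1 to 12 weeks (median -3.49), from 3510 and 2723 normalized counts in sum at P1 to 277 and 456 at 12 weeks, and the endothelial list had 3 genes higher and 1 lower of 8. Kidney genes fell in 10 of 10 and exocrine pancreas genes in 5 of the 7 tested (8 listed). Without the P1 female library 5 of the 6 mast cell genes, 10 of 10 kidney genes and 7 of 7 exocrine pancreas genes fell. The islet list, 8 genes of cells that express Isl1 and Insm1, summed to at most 21.0 normalized counts in any library, with the insulin genes Ins1 and Ins2 at 4.09 or less. Of the T cell and innate lymphoid list, 4 of 8 genes were tested and 1 fell, and Cd3e and Cd3g stayed at 22.4 or less. The list's other measured genes reached higher levels. Cd4 had 12.6 to 65.1 normalized counts, Il7r 18.7 to 130, Thy1 303 to 575 and Rora 5010 to 8816. For mast cells and Gata2, for kidney and Gata3, and for lymphoid cells and Gata3, the part of these cells in the result was not tested.

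Described by correlation over the 7 libraries on the log2 scale, the 28 pairs of members had Pearson r between -0.01 (Gata3 and Insm1) and 0.96 (Hand1 and Tfap2b), with a median of 0.75 and 15 pairs over 0.7. All pairs share the same 7 libraries and their scaling, and the P1 female library is the highest for 6 of the genes. Over the other 6 libraries r ranged from -0.51 to 0.93 for the same pairs, with a median of 0.57 and 8 pairs over 0.7. The genes most like the mean of the 8 among those with a mean of at least 10 were Cacnb1 (r = 0.996), a calcium channel subunit, Grik5 (0.993), a glutamate receptor subunit, Etl4 (0.988), Mmp11 (0.988) and Slc39a6 (0.987). With the same mean r was 0.97 for Sox10, 0.50 for Dbh, 0.55 for Pnmt, 0.42 for Th and -0.03 for Chga. Over the other 6 libraries these were 0.99, 0.15, 0.63, 0.56 and -0.49 in turn, and r was 0.992 for Cacnb1. Among genes that are not members the one most like Tfap2b was Sox10 (0.996), the one most like Hand1 was Fez1 (0.996), and the one most like Hand2 was Meaf6 (0.974) followed by Mag, a myelin glycoprotein. For Phox2a it was Vsig10l, for Gata2 Usp13, for Gata3 Asap1, for Isl1 Enthd2 and for Insm1 Magi3. These are the best of 16720 genes over 7 points and were not tested.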

How the data were processed

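RNA-seq of 7 pools of whole mouse adrenal glands was read from 1 table deposited by the authors. Per the submitters' processing notes the tools were CASAVA 1.8.2, HISAT2 2.1.0, HTSeq 0.9.1 and DESeq2 2.11.40.6 and the build was mm10. The annotation and the strand setting are not given in the sources used here. The deposited values are a signal in which each library's whole reads were scaled by its own size factor: 100.0% of values came out whole within 0.001 reads. The members and lists were chosen with earlier results of these data known. Differences came from limma 3.58.1 (R 4.3.3) on log2(normalized count + 1), with eBayes and a trend, two-sided, adjusted over the 16720 genes with a mean of at least 10, at a threshold of 0.05. The postnatal fit had 6 libraries, age, sex and 2 residual degrees of freedom. The fit from E18.5 to P1 had 7 libraries and age alone. The recovered reads went to edgeR 4.0.16 and DESeq2 1.42.0 as alternatives. Counting intervals are exact 95% Poisson or Clopper-Pearson intervals and cover only counting error, because PCR copies of one molecule were not marked. Members had 49 to 1231 reads per library. Genes named are the 8 members, the list genes with the largest called differences, Th, Dbh, Pnmt, Chga and Sox10 in any case, and the closest genes by Pearson r. Ins1, Ins2, Cd3e, Cd3g, Mycn, Eya1 and Rest are outside this rule and were chosen after their values were seen. Cd4, Il7r, Thy1 and Rora are named as the other measured genes of the list of Cd3e and Cd3g. Alternatives were the pseudocount, the filter, the scaling, the trend, the count tests, the sex term, the chromaffin reference and leaving out each library. Some genes of the marker lists are not reported here by name.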

Additional observations from a re-analysis of the deposited data

Results flagged for a closer look

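Hand1 and Hand2 moved in opposite directions in the 2 sexes from P1 to 2 weeks, and in 5 members the male level was below the female one at P1 and above it later, in each case with counting intervals that exclude a ratio of 1. Each value compares 1 library with 1 other, so the differences between sexes or ages were not tested. In that step Hand1 reached 1.20 times its level in males and 0.465 times in females, and Hand2 to 1.41 times in males and 0.557 times in females. The male level over the female level of Hand1 went from 0.489 (P1) to 1.26 (2 weeks) and 1.77 (12 weeks). That ratio was 0.459 at P1 and 1.16 at 2 weeks for Hand2, and 0.722 at P1, 1.33 at 2 weeks and 1.54 at 12 weeks for Isl1. For Phox2a it was 0.638 at P1 and 1.60 at 12 weeks, and for Tfap2b 0.662 at P1 and 1.41 at 12 weeks. Each of these contrasts sets a value that includes the library labelled P1 female against values that do not.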

How the results depend on the processing

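Each group had 1 library and the labels give no replicate numbers, so libraries could not be matched beyond the sex term of the postnatal fits. Of 1040 alternative values for single members, 885 kept their direction and side of the threshold, 98 were no longer called, 19 became called and 38 changed sign. Without the filter 0 members and 0 genes were called from P1 to 2 weeks, 0 genes from 2 to 12 weeks, 0 by sex and 0 from E18.5 to P1. From P1 to 12 weeks 2 members and 4691 of 27254 genes were then called. Without the trend 0 members and 1672 genes were called from P1 to 2 weeks, 1661 genes from 2 to 12 weeks, 0 by sex and 2 from E18.5 to P1. DESeq2 called 2 members (3040 of 16720 genes) from P1 to 2 weeks and 1 (2942 of 16395 genes) from 2 to 12 weeks. It called 9 genes by sex and 405 from E18.5 to P1. From 2 to 12 weeks 1 member was called with equal totals (3162 of 16720 genes) and 1 with sex not in the fit (2977 genes). Equal totals moved the median of all genes from 2 to 12 weeks to -0.20 and from P1 to 12 weeks to -0.15.

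Relative to the chromaffin mean, no filter gave 0 members and 0 genes from P1 to 2 weeks, 0 and 0 from 2 to 12 weeks, and 1 and 1858 from P1 to 12 weeks. The enzyme reference (Th, Ddc, Dbh) gave 4 members and 2725 genes, 0 members and 4746 genes, and 4 members and 6658 genes in these comparisons. From 2 to 12 weeks no trend gave 0 members and 2285 genes, and DESeq2 gave 0 members and 1924 genes. The fit without moderation across genes, added after seeing the data, gave 0 members and 0 genes in each. It has 2 residual degrees of freedom and called no gene, so it cannot tell whether the calls hold with each gene's own spread.

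Leaving out 1 library at a time, members called ranged from 0 to 5 (P1 to 2 weeks), 0 to 2 (2 to 12 weeks) and 0 to 7 (P1 to 12 weeks), and on the chromaffin scale from 0 to 4, 0 to 0 and 0 to 7. Genes called ranged from 2 to 4461, 421 to 3035 and 3207 to 6271, by sex from 0 to 51, from E18.5 to P1 from 1 to 2, and on the chromaffin scale from 5 to 7410, 681 to 2300 and 2436 to 5642. The 5 members from P1 to 2 weeks were called without either 12-week library, which changes only the spread.

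Signs changed as follows. Equal totals put Gata3 at -0.11 from 2 to 12 weeks and Tfap2b at 0.031 by sex, and edgeR put Hand1 at -0.019 by sex. The enzyme reference put Gata2 at 0.092, Isl1 at 0.089 and Insm1 at 0.18 from 2 to 12 weeks and Insm1 at 0.077 from P1 to 12 weeks. With 1 library left out, members whose sign changed had these lowest and highest values. They were Hand1 -1.22 and 0.38, Hand2 -0.81 and 0.46 and Insm1 -0.24 and 0.51 from P1 to 2 weeks. Others were Gata3 -0.065 and 0.18 and Phox2a -0.70 and 0.43 from 2 to 12 weeks. Others were Insm1 -0.58 and 0.17 from P1 to 12 weeks. Others were Hand2 -0.034 and 1.09 and Tfap2b -0.023 and 0.57 from E18.5 to P1. Others were Hand1 -0.35 and 0.57, Hand2 -0.51 and 0.15, Insm1 -0.0066 and 0.44, Isl1 -0.032 and 0.51, Phox2a -0.45 and 0.20 and Tfap2b -0.29 and 0.25 by sex. Others were Insm1 -0.13 and 0.061, Isl1 -0.34 and 0.091 and Phox2a -0.28 and 0.63 on the chromaffin scale from 2 to 12 weeks. The cause of these changes was not tested. Differences smaller than the reach of the intervals printed in the text were not detectable at this depth and number of libraries. These intervals are not adjusted for the number of genes tested, so somewhat larger differences could also go uncalled.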
